A study of Mus musculus with 8 samples.

Results

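The genes of the urea cycle and of amino acid metabolism were examined in hepatocytes of mice with and without the hepatocyte cannabinoid 1 receptor (CB1R, gene *Cnr1*). The set is a list of 57 mouse genes, and its probes were found as the non-control spots whose accession belongs to a listed gene. All 57 genes had a named probe, with 70 probes among them, out of 21368 named genes on the array. Of the 57 genes, 56 were bright enough to be tested, and 51 of these were well above background on all 8 arrays.

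Hepatocytes were isolated from 4 hCNR1+/+ samples (labelled hCNR1_WT) and 4 hCNR1-/- samples (labelled hCNR1_cKO), and total RNA was hybridised to 1-colour Agilent arrays after labelling with the dye Cy3. Both groups were male mice of 12 to 14 weeks on a standard diet. Per the labels, *Cnr1* carries floxed alleles and Cre is driven by the albumin promoter, which is active in hepatocytes. The strain is given as CNRO for the hCNR1+/+ group and CNRO Alb-Cre for the hCNR1-/- group, so the presence of Cre and the loss of *Cnr1* cannot be told apart. The labels number the samples 1 to 4 in each genotype and do not say that each number is a separate mouse, so a p-value measures the spread between these samples. The legend of the array panel in the article gives fewer samples per genotype than the labels do, and all labelled arrays were used here. No signal well above background came from the *Cnr1* probe (0 of 8 arrays), so the genotype rests on the labels alone.

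The urea cycle turns the ammonia set free by amino acid breakdown into urea and runs in full only in hepatocytes. Its first steps lie in the mitochondrion and its later steps in the cytosol, and it is fed by glutamate, which the transaminases and glutaminase supply. Hepatocytes next to the portal vein carry most of the urea cycle, histidine and serine breakdown, while those around the central vein make glutamine. The enzymes that make serine and asparagine are kept low in liver under usual feeding, and the transcription factor ATF4 raises them when amino acids run short.

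Every level below is a log2 signal, the log2 spot intensity minus the 75th percentile of its array, and every difference is hCNR1-/- minus hCNR1+/+ on that log2 scale, fitted with limma over 11072 genes. The 75th percentile ran from 62.0 to 139 in hCNR1+/+ and from 29.3 to 124 in hCNR1-/- arrays, and the share of spots well above background from 28.6% to 42.3%. Replicate 4 of hCNR1-/- was the dimmest array and the least correlated with its own group (mean r = 0.942). Since row 1 of the slide held the hCNR1+/+ arrays and row 2 the hCNR1-/- arrays, row and genotype cannot be told apart. In both rows the column was the replicate number, so column and replicate number cannot be told apart either. The 13 hepatocyte markers examined, *Alb* among them, were well above background on every array. Their median log2 difference was 0.29, with 9 higher and 4 lower in hCNR1-/-. At an adjusted p below 0.05 in limma, 1 was higher (7.69%, against 2.94% of all tested genes) and 0 lower. In RNA of whole preparations, fewer cells of a type and less RNA per cell cannot be told apart.

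With all arrays, more of the amino acid genes had a lower than a higher mean in hCNR1-/- hepatocytes. Of the 56 tested genes, 39 had a lower and 17 a higher mean, with a median log2 difference of -0.26, against 0.08 over all 11072 tested genes. This direction turned without both arrays numbered 4, a setting added after seeing the data, with a median of 0.04 and 23 genes lower and 33 higher, against a median of 0.20 over all tested genes. At an adjusted p below 0.05 in limma, 2 genes fell and 0 rose, *Acmsd* of the tryptophan branch and *Hal* of histidine breakdown. That is 3.57% of the tested genes lower, against 1.3% of all tested genes called lower and 2.94% called higher. At a fold above 2 with an unadjusted p below 0.05, 6 genes were lower (*Acmsd*, *Hal*, *Kynu*, *Tdo2*, *Ass1* and *Sds*) and 1 was higher (*Phgdh*). Over all genes, the same rule called 3.75% lower and 4.78% higher, against 10.7% and 1.79% of the amino acid genes. *Acmsd* and *Kynu* passed the brightness filter mainly through hCNR1+/+, where they were high, so the lower shares under both rules depend on the filter. Where probes had to be well above background on all arrays, *Hal* was the only gene lower at an adjusted p below 0.05 in limma. At an unadjusted p below 0.05 alone, limma gave 8 lower and 2 higher genes, 14.3% and 3.57% of the 56, against 6.92% and 14.7% of all tested genes.

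The values of the 2 genotypes did not overlap for 5 genes that were lower in hCNR1-/- (*Ass1*, *Fah*, *Acmsd*, *Hal* and *Oat*) and for 2 that were higher (*Got2* and *Phgdh*). These are 8.93% and 3.57% of the 56 genes, against 5.04% lower and 12.7% higher over all tested genes. The 4 against 4 arrays allow an exact two-sided permutation p of 0.0286 at the least. Groups that do not overlap always give this value, so for these 7 genes it only restates the lack of overlap.

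**Figure D1:**
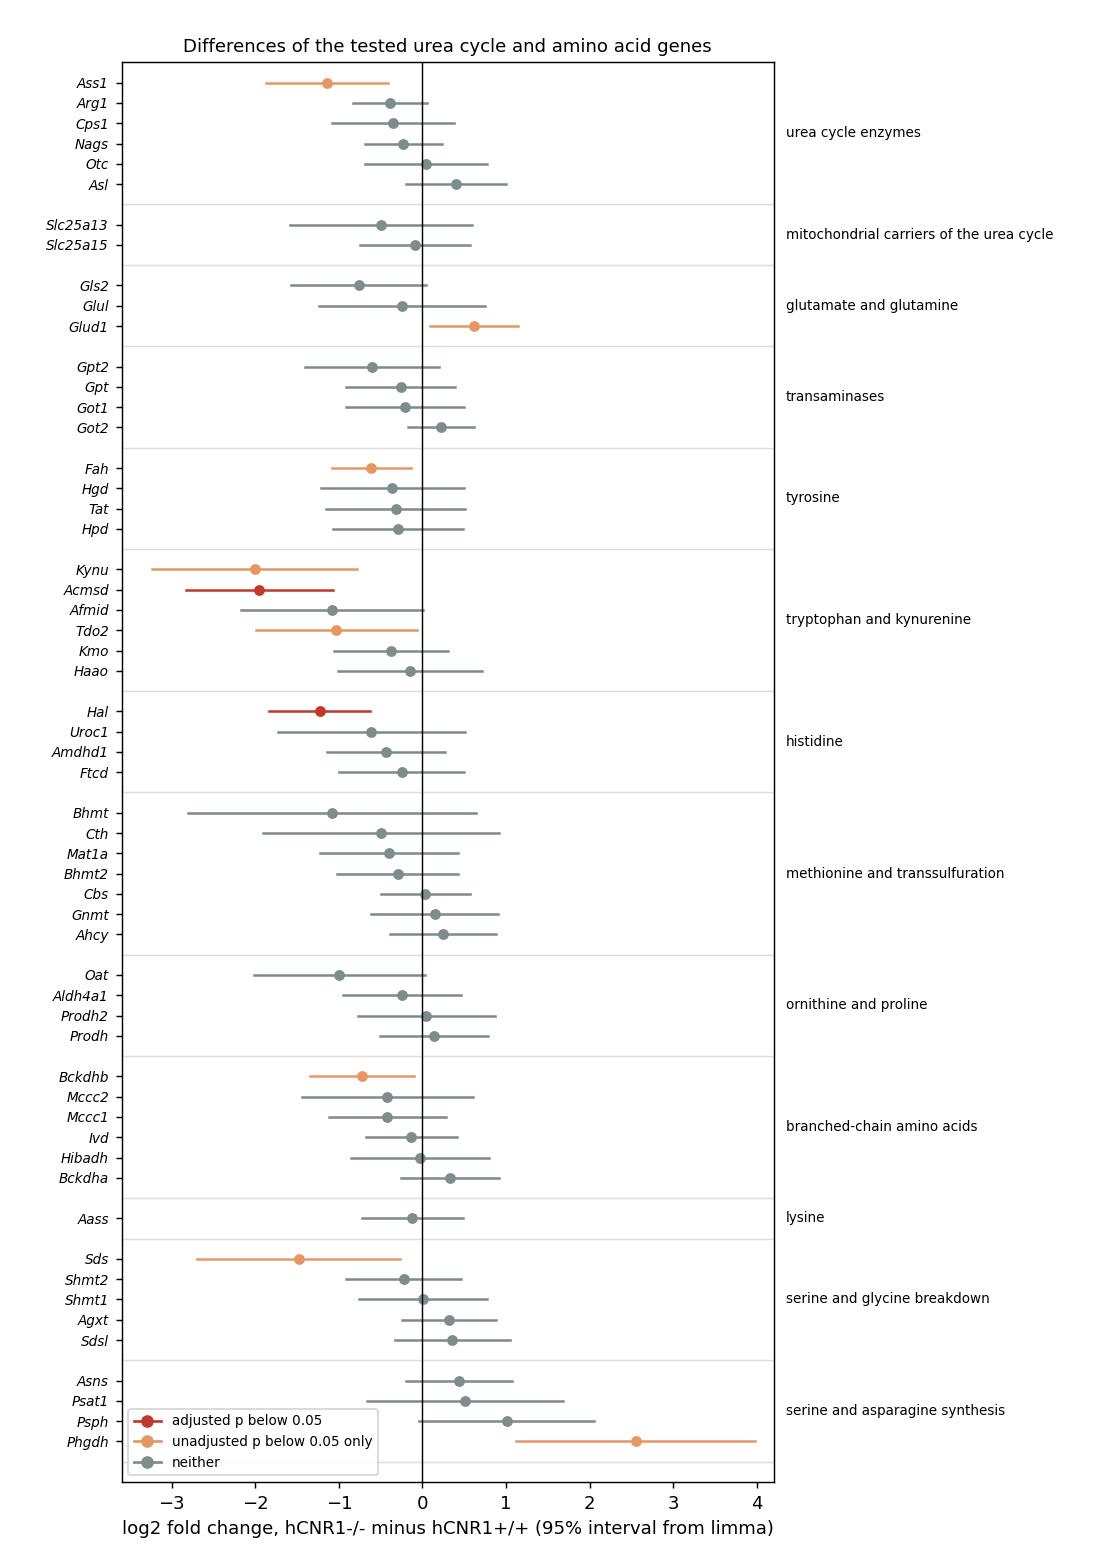
Log2 difference (hCNR1-/- minus hCNR1+/+, x axis) of the 56 tested genes, grouped by pathway, as points with 95% intervals from limma. *Acmsd* and *Hal* are the 2 genes at an adjusted p below 0.05, all genes of tryptophan, histidine and tyrosine breakdown lie left of 0, and all 4 genes of serine and asparagine synthesis lie right of it.

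Promoters are shown for the 4 genes of serine and asparagine synthesis and for *Hal*. Those 4 shared a direction, though none was called at an adjusted p below 0.05 in limma with all arrays, and *Hal* fell. Each line gives the 250 bases before the transcription start, 5′ to 3′ on the strand of the gene, from RefSeq on the build GRCm38.p6. Capitals mark matches on either strand to any of the following motifs, the C/EBP motifs TTNNGNAA and TTGCGCAA, the cAMP response element TGACGTCA, the ATF4 element TGATGNAA and the HNF4 motif CAAAGTCCA.
*Phgdh*, chr3:98339970-98340219, minus strand: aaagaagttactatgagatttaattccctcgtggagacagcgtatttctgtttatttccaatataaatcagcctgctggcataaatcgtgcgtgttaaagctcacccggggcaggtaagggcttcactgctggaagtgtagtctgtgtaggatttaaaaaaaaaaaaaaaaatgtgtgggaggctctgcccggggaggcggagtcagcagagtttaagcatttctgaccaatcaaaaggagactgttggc
*Psat1*, chr19:15925060-15925309, minus strand: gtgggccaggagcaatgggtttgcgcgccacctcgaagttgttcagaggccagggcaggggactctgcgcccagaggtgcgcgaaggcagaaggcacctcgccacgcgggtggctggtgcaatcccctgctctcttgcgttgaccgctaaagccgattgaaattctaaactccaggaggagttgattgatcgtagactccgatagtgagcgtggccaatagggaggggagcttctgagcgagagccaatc
*Psph*, chr5:129787254-129787503, minus strand: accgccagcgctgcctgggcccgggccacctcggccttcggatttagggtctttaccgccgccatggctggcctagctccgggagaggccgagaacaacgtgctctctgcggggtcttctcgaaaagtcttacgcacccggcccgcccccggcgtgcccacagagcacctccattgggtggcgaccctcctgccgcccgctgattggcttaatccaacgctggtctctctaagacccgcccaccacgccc
*Asns*, chr6:7693210-7693459, minus strand: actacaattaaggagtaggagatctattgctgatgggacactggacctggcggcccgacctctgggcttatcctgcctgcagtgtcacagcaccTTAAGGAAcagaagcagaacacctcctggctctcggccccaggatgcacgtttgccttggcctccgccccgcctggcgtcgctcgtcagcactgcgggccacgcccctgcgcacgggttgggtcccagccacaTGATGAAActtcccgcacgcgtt
*Hal*, chr10:93488518-93488767, plus strand: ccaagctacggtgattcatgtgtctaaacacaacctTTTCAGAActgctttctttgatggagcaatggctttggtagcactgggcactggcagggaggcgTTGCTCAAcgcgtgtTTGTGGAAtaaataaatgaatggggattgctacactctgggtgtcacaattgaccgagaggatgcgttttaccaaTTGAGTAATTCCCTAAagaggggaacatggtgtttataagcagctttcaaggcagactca

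In these windows *Phgdh*, *Psat1* and *Psph* held none of these motifs, and the second start of *Psat1* did not either. *Asns* held 1 ATF4 element, TGATGAAA, 23 bases before the start, and 1 C/EBP match. *Hal* held 5 C/EBP matches. The window of *Acmsd*, the other gene that fell, is not shown and held 1 C/EBP match, 148 bases before the start. Of the 57 genes, 46 matched the RefSeq promoter table, with 49 windows, since a gene can have more than 1 start. The C/EBP motif TTNNGNAA lay in 14 of these windows (28.6%) and in 36.8% of all 32851 windows of the same length. The ATF4 element lay in 2 (4.08%, *Asns* and *Got1*) against 3.45% of all windows. The C/EBP palindrome TTGCGCAA, which every TTNNGNAA search also finds, the cAMP response element and the HNF4 motif were in 0 of the 49 windows, against 0.164%, 1.55% and 0.384% of all windows. A match is a run of letters and was not tested as a binding site.

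All 4 genes of serine and asparagine synthesis had a higher mean in hCNR1-/-, with a median log2 difference of 0.76 and the largest difference in *Phgdh*. None of them passed the test at an adjusted p below 0.05 in limma with all arrays, and their difference from the rest of the set was not tested. *Psat1* and *Asns* were slightly lower without scaling between arrays (-0.05 and -0.12), and all 4 were higher under every other scaling tried. *Phgdh* makes 3-phosphohydroxypyruvate, the first step from glycolysis to serine. Its log2 signal was 1.16, 2.95, 1.62 and -0.57 in hCNR1+/+ arrays, against 4.42, 3.99, 3.15 and 3.81 in hCNR1-/- arrays, here and below in the order of the replicate numbers. Every hCNR1-/- value lay above every hCNR1+/+ value, and the hCNR1+/+ values spread widely. The log2 difference was 2.55 (standard error 0.64, 5.86-fold), with an adjusted p of 0.0550 in limma, just outside the threshold. Its second probe gave 2.67. Leaving out any 1 array, the difference ran from 1.93 to 3.11 and the adjusted p in limma from 0.0408 to 0.140.

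*Psph* removes the phosphate in the last step of serine synthesis. The arrays read 3.96, 4.34, 3.83 and 2.85 in hCNR1+/+ against 5.22, 5.43, 4.91 and 3.46 in hCNR1-/- replicates. Replicate 4 was the lowest in both genotypes, and the other 3 hCNR1-/- values lay above all hCNR1+/+ values. This made a log2 difference of 1.01 (standard error 0.47, adjusted p = 0.245 in limma), and 0.87 on its second probe. Without hCNR1-/- replicate 4 it was 1.44, with an adjusted p of 0.0330 in limma. That setting called 1121 of all 11072 genes higher, against 325 with all arrays.
*Psat1*, the transaminase between *Phgdh* and *Psph*, had 4.58, 4.88, 4.13 and 3.57 in hCNR1+/+ against 5.46, 5.54, 5.05 and 3.17 in hCNR1-/- replicates. Replicate 4 of hCNR1-/- was below every hCNR1+/+ array, while the other 3 were above all of them. This made a log2 difference of 0.51 (standard error 0.52, adjusted p = 0.606 in limma). Its second probe did not place hCNR1-/- replicate 4 low, and read -0.35, 0.07, -0.88 and -1.35 in hCNR1+/+ and 1.00, 0.68, 0.23 and 1.12 in hCNR1-/-. The groups did not overlap on that probe, whose difference was 1.39. The 2 probes of *Psat1* thus disagreed about hCNR1-/- replicate 4.

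*Asns* makes asparagine from aspartate and glutamine. Its log2 signal was 6.99, 7.33, 6.79 and 6.57 in hCNR1+/+ against 7.41, 7.72, 7.62 and 6.67 in hCNR1-/- replicates, a difference of 0.43 (standard error 0.28, adjusted p = 0.410 in limma). Replicate 4 was again the lowest of each genotype. With both arrays numbered 4 left out, the differences were 1.94 for *Phgdh*, 1.14 for *Psph*, 0.82 for *Psat1* and 0.55 for *Asns*. The adjusted p in limma was then 0.0310, 0.0132, 0.0454 and 0.0754.

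**Figure D2:**
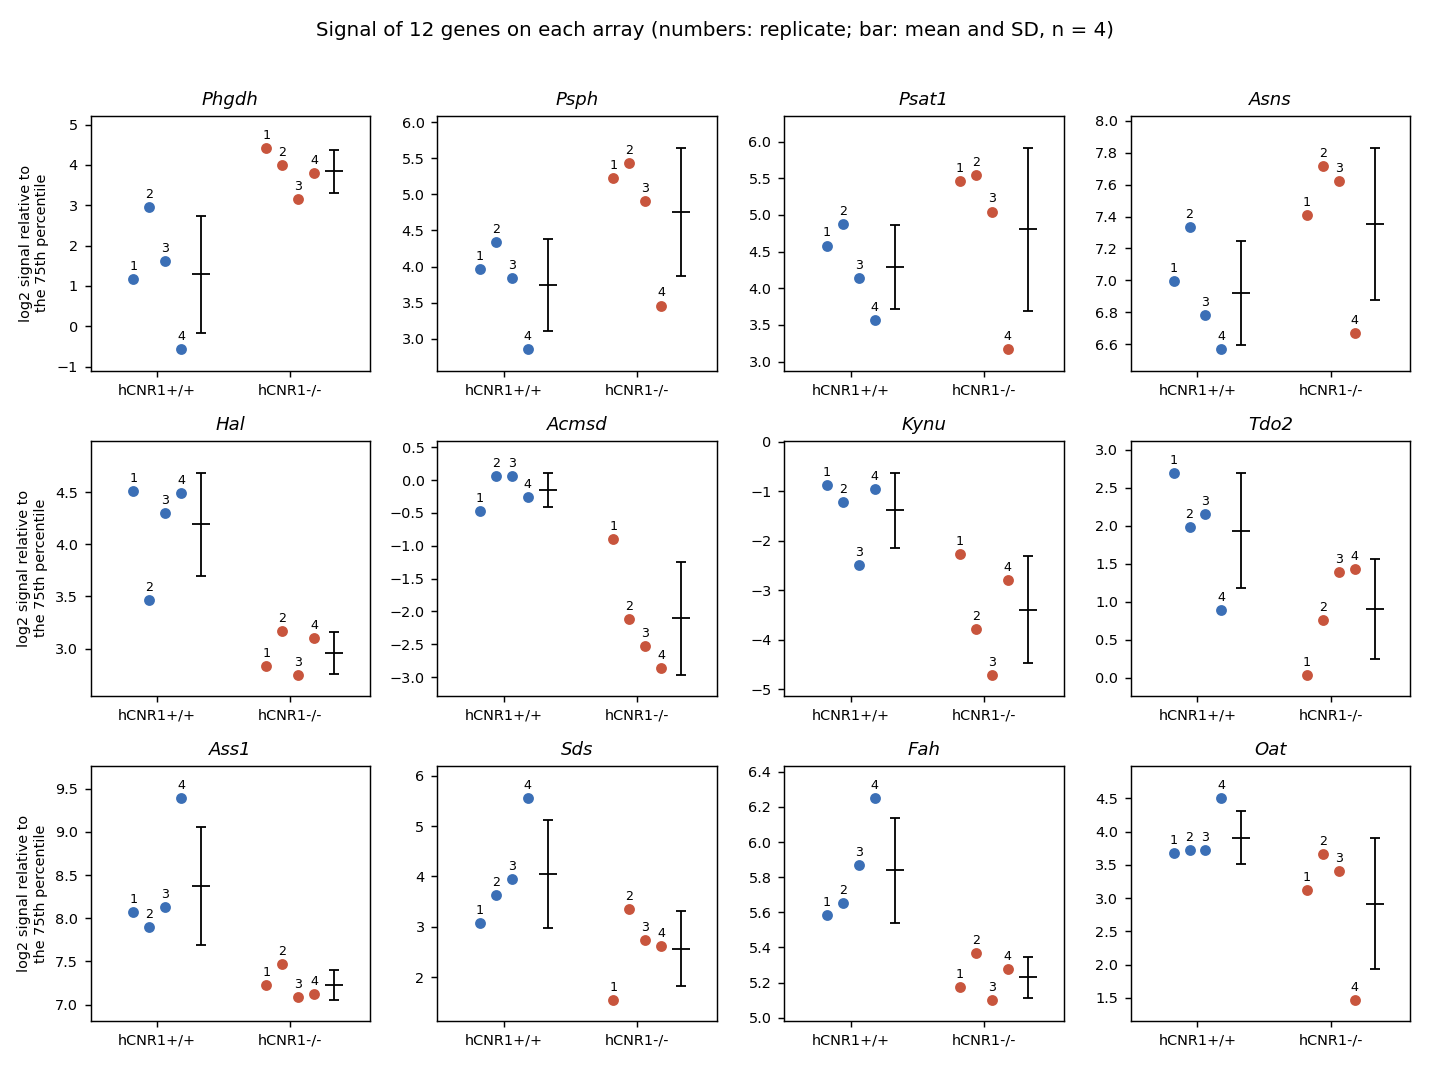
Log2 signal relative to the 75th percentile of the array (y axis) of 12 genes on each of the 8 arrays, with the replicate number above each point and the mean and SD (n = 4) beside each genotype. *Hal*, *Acmsd*, *Ass1*, *Fah* and *Oat* do not overlap between the genotypes, *Phgdh* does not either, and replicate 4 of hCNR1-/- lies apart for *Psph*, *Psat1*, *Asns* and *Oat*.

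The 6 genes of tryptophan breakdown had a median log2 difference of -1.06, the lowest of the pathway groups in this setting. That rank was lost with normexp background correction, which damps dim spots, where the median was -0.50 against -0.55 for histidine breakdown. It was also lost over the 3 genes well above background on all arrays (*Tdo2*, *Kmo* and *Haao*), whose median was that of *Kmo*, -0.38, against -0.52 for histidine breakdown. All 6 had a lower mean in hCNR1-/-, under every scaling tried. *Haao* (-0.15) turned to 0.17 without hCNR1+/+ replicate 4 and was also higher without hCNR1-/- replicate 1.
*Tdo2* opens the indole ring of tryptophan, the entry step of the branch in liver. The arrays read 2.70, 1.99, 2.16 and 0.90 in hCNR1+/+ against 0.04, 0.76, 1.39 and 1.43 in hCNR1-/- replicates. Replicate 4 of hCNR1+/+ lay among the hCNR1-/- values. The log2 difference was -1.03 (standard error 0.43, adjusted p = 0.205 in limma), and -1.55 (adjusted p = 0.0223 in limma) without both arrays numbered 4. *Afmid* releases formate in the next step and had a difference of -1.08 (standard error 0.49, adjusted p = 0.234 in limma). Replicate 4 of hCNR1+/+, at 2.18, was its highest value, and the difference was -0.67 without it.

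*Kynu* cuts kynurenine and its hydroxylated form to anthranilates. Its probe read -0.88, -1.22, -2.49 and -0.96 in hCNR1+/+ against -2.27, -3.79, -4.71 and -2.80 in hCNR1-/- replicates, with a single overlap through hCNR1+/+ replicate 3. Its log2 difference was -2.01 (standard error 0.55, adjusted p = 0.0714 in limma). The probe was well above background on 3 hCNR1+/+ arrays and 1 hCNR1-/- array, and a second, dimmer probe gave -0.31.
*Acmsd* turns the branch away from NAD synthesis toward full oxidation. Its probe read -0.47, 0.06, 0.06 and -0.26 in hCNR1+/+ against -0.90, -2.12, -2.53 and -2.86 in hCNR1-/- replicates. All hCNR1-/- values lay below all hCNR1+/+ values. *Acmsd* fell by 1.95 on the log2 scale (standard error 0.39, 3.87-fold, adjusted p = 0.0319 in limma). The probe was well above background on 4 hCNR1+/+ arrays and 1 hCNR1-/- array, so the size of the fall rests on dim spots. *Acmsd* and *Kynu* passed the brightness filter mainly through the group where they were high, so their place among the tested genes is not independent of their difference. With normexp the difference of *Acmsd* was -0.60, with an adjusted p of 0.286 in limma. Without normexp and with any 1 array left out, it ran from -2.35 to -1.70 and the adjusted p in limma from 0.0154 to 0.105.

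*Kmo*, which hydroxylates kynurenine, had differences of -0.38 and -0.58 on its 2 probes. Macrophages also express kynurenine enzymes, and Kupffer cell markers moved with this group. Of 14 Kupffer cell markers 11 were tested, and all 11 had a lower mean in hCNR1-/-, with a median log2 difference of -0.83. Only 7 of the 11 were well above background on all 8 arrays, so these figures can depend on the brightness filter. Their mean log2 signal ran from 1.10 to 2.35 in hCNR1+/+ and from 0.05 to 0.90 in hCNR1-/- preparations. *Marco* and *Ctss* reached an adjusted p below 0.05 in limma, 18.2% of the tested markers against 1.3% of all tested genes called lower. *Timd4*, a marker of resident Kupffer cells, was well above background on 0 of 8 arrays. The part of these markers in the tryptophan result was not tested.

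Histidine breakdown was lower in all 4 genes, under every scaling tried and with any 1 array left out, with a median log2 difference of -0.52. *Hal* removes ammonia from histidine, the first step of the pathway. Its probe read 4.51, 3.47, 4.30 and 4.49 in hCNR1+/+ against 2.83, 3.17, 2.75 and 3.098 in hCNR1-/- replicates. The hCNR1-/- values lay close together and below all hCNR1+/+ values, of which replicate 2 was the nearest. *Hal* fell by 1.23 on the log2 scale (standard error 0.27, 2.35-fold, adjusted p = 0.0390 in limma). Its probe was well above background on all 8 arrays. Leaving out any 1 array, it ran from -1.47 to -1.12 and the adjusted p in limma from 0.0269 to 0.127.
The later steps of the pathway had smaller differences within the spread of the arrays. They were -0.61 for *Uroc1*, -0.44 for *Amdhd1* and -0.25 for *Ftcd*, with adjusted p from 0.456 to 0.696 in limma. Replicate 4 of hCNR1+/+ was the highest of its group for all 3, and without it *Ftcd* was at -0.00.

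All 4 genes of tyrosine breakdown had a lower mean in hCNR1-/-, under every scaling tried, with a median log2 difference of -0.34. *Fah* carries out the last step, and its loss causes hereditary tyrosinemia. Its values were 5.59, 5.66, 5.87 and 6.25 in hCNR1+/+ against 5.17, 5.37, 5.10 and 5.28 in hCNR1-/- replicates. The groups did not overlap, by a small margin, with a difference of -0.61 (standard error 0.21, adjusted p = 0.134 in limma). *Tat*, which moves the amino group off tyrosine, *Hpd* and *Hgd* had differences of -0.32, -0.29 and -0.36 and overlapped. *Hpd* turned to 0.06 without hCNR1+/+ replicate 4, and *Hgd* to 0.03 without hCNR1-/- replicate 4.

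In the urea cycle, 4 of the 6 enzymes had a lower and 2 a higher mean on the tested probes, and the median log2 difference was -0.29. *Otc* counted as higher through its brighter probe, while its other probe was lower. *Ass1*, which joins citrulline to aspartate and is most abundant near the portal vein, had the largest difference of the tested probes. Its values were 8.08, 7.90, 8.13 and 9.39 in hCNR1+/+ against 7.23, 7.47, 7.09 and 7.13 in hCNR1-/- replicates. The hCNR1-/- values lay in a narrow range below all hCNR1+/+ values, and hCNR1+/+ replicate 4 stood above the other 3. The log2 difference was -1.14 (standard error 0.33, 2.21-fold, adjusted p = 0.0800 in limma). Its second probe gave -1.35, with no overlap either. Without hCNR1+/+ replicate 4 the difference was -0.81 (adjusted p = 0.0769 in limma), and with quantile normalization it was -1.43 (adjusted p = 0.0427 in limma).

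The other urea cycle enzymes had smaller differences on the tested probes, with adjusted p from 0.296 to 0.957 in limma. *Cps1*, the mitochondrial enzyme that commits ammonia to the cycle, had 4.77, 4.67, 5.10 and 5.37 in hCNR1+/+ against 5.05, 5.14, 4.55 and 3.77 in hCNR1-/- replicates. Its difference of -0.35 (adjusted p = 0.568 in limma) was -0.06 without hCNR1-/- replicate 4, the lowest array. *Nags*, which makes the activator of *Cps1*, had 3.47, 3.46, 3.35 and 3.98 against 3.43, 3.45, 3.19 and 3.28, a difference of -0.23 (adjusted p = 0.560 in limma).
*Arg1*, which splits arginine into urea and ornithine, had 7.01, 6.76, 6.998 and 7.10 in hCNR1+/+ against 6.60, 6.35, 6.88 and 6.50 in hCNR1-/- replicates. Only hCNR1-/- replicate 3 reached into the hCNR1+/+ range, and the difference was -0.39 (standard error 0.20, adjusted p = 0.296 in limma), larger than the SD of either group (0.14 and 0.22). *Asl*, the step after *Ass1*, went the other way, with 5.91, 6.27, 6.34 and 6.54 in hCNR1+/+ against 6.43, 6.72, 6.25 and 7.28 in hCNR1-/- replicates. Its difference was 0.40 (95% interval -0.19 to 1.00), and -0.15 without scaling between arrays. Adjacent enzymes of the cycle, *Ass1* and *Asl*, thus had opposite signs with scaling by the 75th percentile. The difference between them was not tested.

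*Otc*, which makes citrulline in the mitochondrion, gave different answers on its 2 probes. The brighter probe read 0.82, 0.87, 1.46 and 1.38 in hCNR1+/+ against 0.28, 1.45, 1.65 and 1.31 in hCNR1-/- replicates, a difference of 0.04 (95% interval -0.69 to 0.77). The other probe, printed as 10 spots per array, read -1.76, -1.78, -1.11 and -1.08 in hCNR1+/+ against -3.14, -2.54, -2.48 and -3.00 in hCNR1-/- replicates. Its groups did not overlap, with a difference of -1.36. It was well above background on 4 hCNR1+/+ arrays and 1 hCNR1-/- array. No direction is therefore given for *Otc*.
The carriers that serve the cycle had lower means within their spread. *Slc25a13*, the aspartate and glutamate carrier citrin, had 2.86, 2.18, 2.92 and 3.98 in hCNR1+/+ against 3.11, 2.95, 2.68 and 1.20 in hCNR1-/- replicates. Its difference was -0.50 (adjusted p = 0.587 in limma) and 0.26 with both arrays numbered 4 left out. *Slc25a15*, the ornithine carrier, had -0.09.

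Among the genes that feed ammonia and aspartate to the cycle, glutamate dehydrogenase and glutaminase went opposite ways. *Glud1*, which frees ammonia from glutamate, had 6.57, 6.40, 6.72 and 7.16 in hCNR1+/+ against 7.43, 7.34, 6.97 and 7.55 in hCNR1-/- replicates. Its difference was 0.61 (standard error 0.23, unadjusted p = 0.0272, adjusted p = 0.170 in limma) and stayed above 0 under every alternative run. A second probe gave -0.09, with hCNR1-/- replicate 4 its lowest array. *Gls2*, the liver glutaminase of the portal zone, had 5.11, 5.37, 5.53 and 6.42 in hCNR1+/+ against 4.92, 5.33, 5.10 and 4.04 in hCNR1-/- replicates, a difference of -0.76 (adjusted p = 0.256 in limma). Without both arrays numbered 4 it was -0.22. *Glul*, the glutamine synthetase of the central zone, had a difference of -0.24 (95% interval -1.24 to 0.75).

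Of the transaminases, *Got2* was higher and *Got1*, *Gpt* and *Gpt2* lower. *Got2*, the mitochondrial aspartate aminotransferase, had 6.74, 6.74, 6.71 and 6.80 in hCNR1+/+ against 7.03, 7.10, 6.91 and 6.84 in hCNR1-/- replicates. The groups did not overlap, but the difference was small, 0.22 (adjusted p = 0.499 in limma), and turned to -0.03 with quantile normalization and -0.33 without scaling. *Got1*, its cytosolic counterpart, had -0.21. *Gpt2*, the mitochondrial alanine aminotransferase, had 6.67, 6.27, 6.79 and 6.86 in hCNR1+/+ against 6.44, 6.41, 6.39 and 4.92 in hCNR1-/- replicates. Its difference of -0.61 (adjusted p = 0.359 in limma) was -0.23 without hCNR1-/- replicate 4, which stood far below the other 3. *Gpt*, the alanine aminotransferase measured in plasma as ALT, had -0.26 (95% interval -0.92 to 0.39).

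Serine breakdown was split between its paralogs. *Sds*, serine dehydratase, which feeds pyruvate to gluconeogenesis, had 3.07, 3.62, 3.96 and 5.55 in hCNR1+/+ against 1.55, 3.36, 2.74 and 2.62 in hCNR1-/- replicates. Replicate 4 of hCNR1+/+ was the highest and replicate 1 of hCNR1-/- the lowest, with a small overlap between the groups. The log2 difference was -1.48 (standard error 0.54, adjusted p = 0.155 in limma), and -0.98 without hCNR1+/+ replicate 4. *Sdsl*, its close relative, had 0.35, with an interval from -0.33 to 1.04. *Agxt*, which detoxifies glyoxylate, had 0.31, and *Shmt1* and *Shmt2*, which pass the carbon of serine to folate, had 0.00 and -0.23. The signals of *Sds*, a gene of serine breakdown, and *Phgdh*, a gene of serine synthesis, thus had opposite signs in these arrays. Neither passed at an adjusted p below 0.05 in limma with all arrays, and the difference between them was not tested. *Sdsl* had the same sign as *Phgdh*.

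Of the 7 genes of methionine metabolism and transsulfuration 4 were lower and 3 higher, and none passed the test. *Bhmt*, which returns the methyl group of betaine to homocysteine, had 5.57, 4.89, 5.03 and 7.38 in hCNR1+/+ against 4.57, 5.93, 5.49 and 2.55 in hCNR1-/- replicates. Its highest and its lowest value were the arrays numbered 4. The difference was -1.08 (standard error 0.77, adjusted p = 0.447 in limma), -0.52 to -1.15 over its 3 probes, and 0.16 with both of those arrays left out. Its paralog *Bhmt2* had -0.30. *Cth*, which releases cysteine, had -0.50, through 0.48 in hCNR1-/- replicate 4 against 3.27 to 3.72 in the other 3, and turned to 0.25 without it. *Mat1a* had -0.40, *Cbs* 0.04, *Gnmt* 0.14 and *Ahcy* 0.25.

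*Oat*, which links ornithine to proline and glutamate, had 3.68, 3.73, 3.72 and 4.50 in hCNR1+/+ against 3.12, 3.66, 3.40 and 1.47 in hCNR1-/- replicates. The groups did not overlap, by a margin as small as that between 3.66 and 3.68. The difference was -0.99 (standard error 0.45, adjusted p = 0.242 in limma), and -0.31 with both arrays numbered 4 left out. The proline oxidases *Prodh* and *Prodh2* had 0.14 and 0.05, and *Aldh4a1*, the step after them, -0.24.

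Of the branched-chain genes, *Bckdhb*, a subunit of the dehydrogenase that commits these amino acids to oxidation, had the largest difference. Its log2 signal was 4.58, 4.14, 4.43 and 4.80 in hCNR1+/+ against 3.72, 4.37, 3.74 and 3.20 in hCNR1-/- replicates, a difference of -0.73 (standard error 0.28, unadjusted p = 0.0265, adjusted p = 0.168 in limma). The partner subunit *Bckdha* had 0.33 (95% interval -0.26 to 0.91). *Dbt*, the third component, was not tested, since its probe was well above background on 3 hCNR1+/+ arrays and 0 hCNR1-/- arrays. Against the lowest signal well above background it was at least 1.03-fold higher in hCNR1+/+, with measured means of -2.14 and -3.13. *Ivd*, *Mccc1*, *Mccc2* and *Hibadh*, which act further down, ran from -0.42 to -0.03. *Aass*, the first enzyme of lysine breakdown, had a difference of -0.12, with log2 signals of 5.31 ± 0.48 in hCNR1+/+ and 5.19 ± 0.22 in hCNR1-/- preparations (SD, n = 4).

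**Figure D3:**
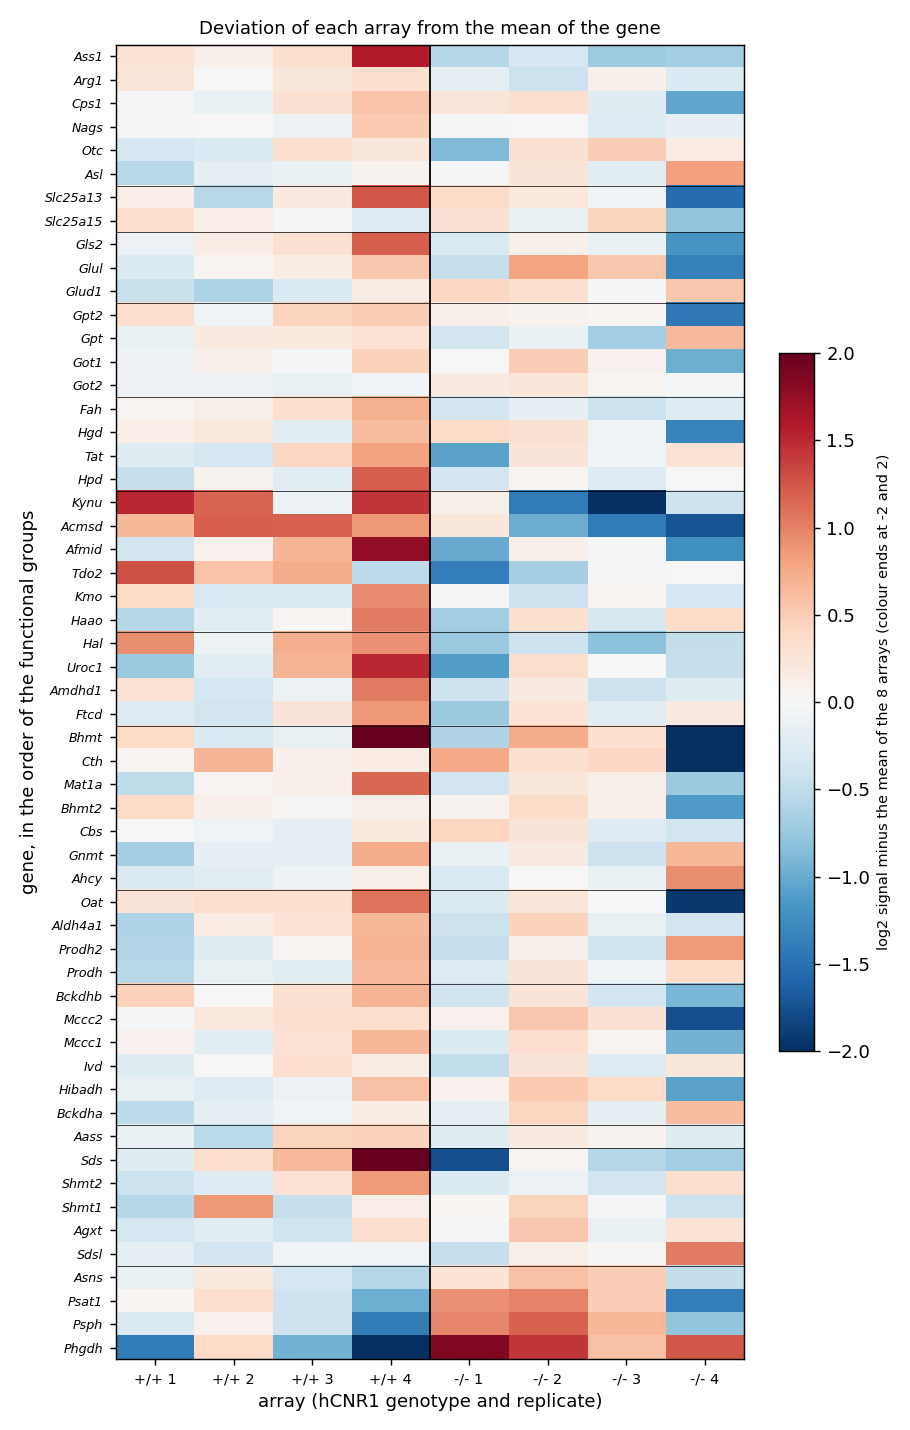
Deviation of each array from the mean of the 8 arrays (colour, log2 units, ends at -2 and 2) for the 56 tested genes, in the order of the pathway groups. Replicate 4 of hCNR1+/+ is the highest of its group for 41 genes and replicate 4 of hCNR1-/- the lowest of its group for 25, while *Ass1* is above its mean in all hCNR1+/+ and below it in all hCNR1-/- columns.

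The lower median of the set depended on the arrays numbered 4, mainly on that of hCNR1+/+. Replicate 4 of hCNR1+/+ was the highest of its group for 41 of the 56 genes (73.2%, against 45.5% of all tested genes). Replicate 4 of hCNR1-/- was the lowest of its group for 25 (44.6%), a smaller share than over all tested genes (53.3%). The mean log2 signal of the 56 genes was 4.42, 4.51, 4.59 and 5.01 in hCNR1+/+ against 4.32, 4.69, 4.39 and 4.06 in hCNR1-/- replicates. The median of the set minus that of all tested genes was -0.34 with all arrays, -0.21 without hCNR1+/+ replicate 4, -0.34 without hCNR1-/- replicate 4 and -0.17 without both. With both left out, limma called 8 genes at an adjusted p below 0.05, lower *Acmsd*, *Hal*, *Ass1* and *Tdo2* and higher *Glud1*, *Phgdh*, *Psat1* and *Psph*. The same setting called 480 genes lower (4.34%) and 1701 higher (15.4%) of all 11072, against 144 and 325 with all arrays. Of the 8 genes, *Acmsd* and *Hal* were also called with all arrays, and the other 6 were not.

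**Figure D4:**
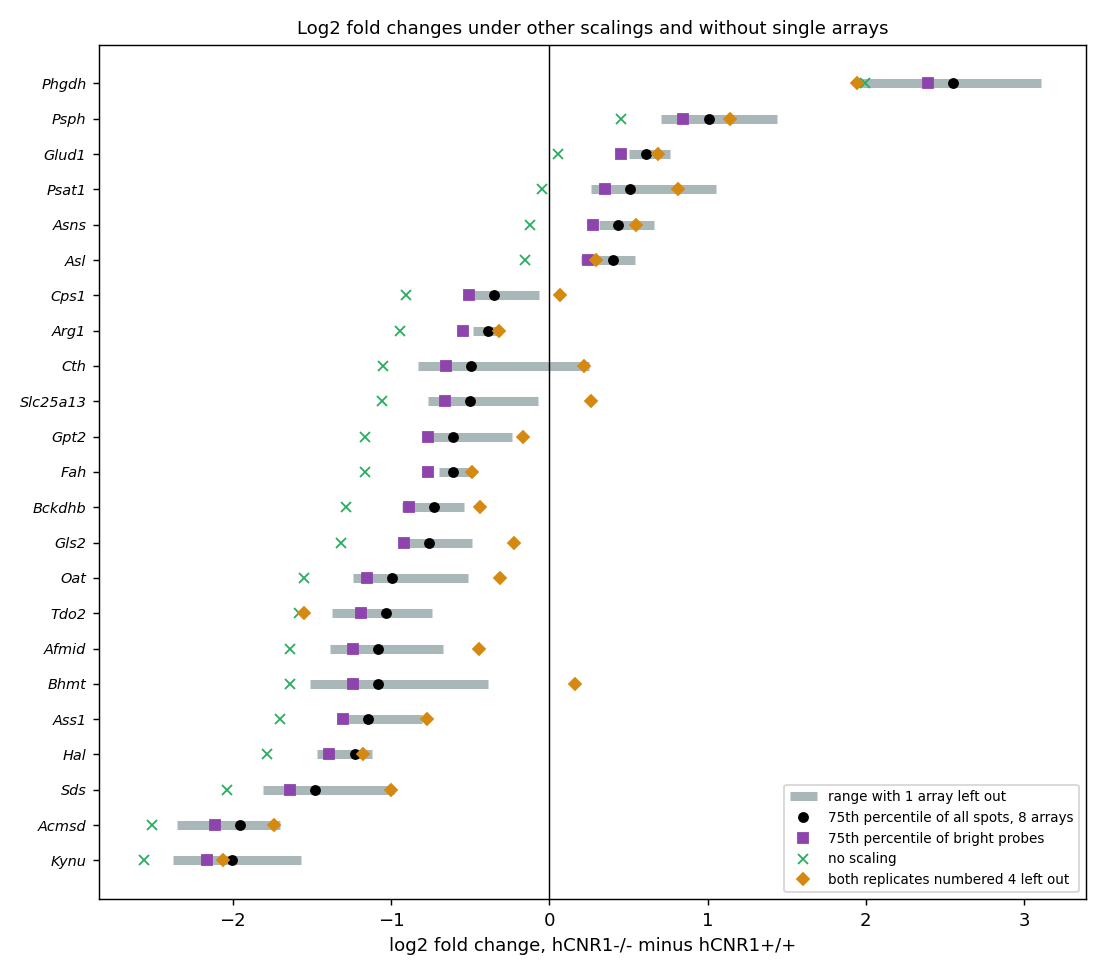
Log2 difference (hCNR1-/- minus hCNR1+/+, x axis) of 23 genes with all arrays, with the 75th percentile taken over bright probes, without scaling, and without both arrays numbered 4, beside the range with 1 array left out (bars). *Bhmt*, *Cth*, *Slc25a13* and *Cps1* cross 0 without the arrays numbered 4, while *Hal*, *Acmsd*, *Kynu*, *Tdo2* and *Ass1* stay below 0 and *Phgdh* and *Psph* above it.

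Further genes of amino acid metabolism, outside the 57, had a median near 0. Of 70 such genes 64 were tested, with 34 lower and 30 higher, a median log2 difference of -0.02, and 3 lower (4.69%, against 1.3% of all tested genes) and 0 higher at an adjusted p below 0.05 in limma. The groups did not overlap for 8 lower genes (12.5%, against 5.04%) and 1 higher gene (1.56%, against 12.7%). The 3 were *Acadsb*, which oxidises the carbon of isoleucine, *Chdh*, which turns choline to betaine aldehyde, and *Slc1a2*, a glutamate transporter of the central zone. *Acadsb* fell by 1.67 (standard error 0.21, adjusted p = 0.00879 in limma), from -0.84 ± 0.20 to -2.51 ± 0.25 (SD, n = 4), and was well above background on 4 hCNR1+/+ arrays and 1 hCNR1-/- array. Like *Acmsd*, it passed the brightness filter mainly through the group where it was high. Both lower shares given above include it and so depend on the filter, and the size of its fall rests on dim spots. *Chdh* fell by 1.67, from 1.36 ± 0.68 to -0.31 ± 0.50 (SD, n = 4, adjusted p = 0.0409 in limma). *Slc1a2* fell by 1.58, from 2.74 ± 0.51 to 1.15 ± 0.44 (SD, n = 4, adjusted p = 0.0309 in limma). *Agxt2*, a mitochondrial transaminase of glyoxylate, had -1.07 (adjusted p = 0.0817 in limma) with no overlap between the groups.

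Since *Ass1*, *Hal*, *Sds* and *Gls2* belong to the portal zone, other zone markers were set beside them. These 4 all had lower means, but the other urea cycle enzymes were mixed. *Arg1* and *Nags* were lower, *Asl* was higher (0.40), and the 2 probes of *Otc* disagreed. *Cps1* was at -0.35, and at -0.06 without hCNR1-/- replicate 4. Of 7 portal genes outside the set 6 had a lower mean in hCNR1-/-, with a median log2 difference of -0.76. *Hsd17b13*, a lipid droplet protein, fell by 1.59 (adjusted p = 0.0269 in limma), and *Pck1*, of gluconeogenesis, had -1.81 (adjusted p = 0.0515 in limma). *Hsd17b6* had -2.02, *Cyp2f2* -0.76, *Pigr* -0.28 and *Cdh1* -0.27, while *G6pc* was at 0.33. Of 6 tested central genes 3 were lower and 3 higher, with a median of -0.16. Among these *Slc1a2* fell, and *Cyp1a2*, *Gulo*, *Cyp2e1*, *Rhbg* and *Tbx3* ran from -0.62 to 0.43. The difference between the zones was not tested, and the values of the zone genes outside the set are given with all arrays only.

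Of 16 listed regulators of these pathways 15 were tested, and 0 reached an adjusted p below 0.05 in limma. At an unadjusted p below 0.05 in limma, *Klf15* was lower and *Sesn2* higher. That is 6.67% each way, no more than the 6.92% lower and 14.7% higher of all tested genes. *Atf4*, whose protein is set mainly by translation, was at 9.66 ± 0.22 in hCNR1+/+ and 9.67 ± 0.47 in hCNR1-/- (SD, n = 4). Its stress targets *Trib3*, *Ddit3* and *Sesn2* had differences of 0.32, -0.53 and 0.55, and *Sesn2* did not overlap between the groups (adjusted p = 0.177 in limma). *Klf15*, which raises amino acid breakdown in fasting, had -0.64 (unadjusted p = 0.0431, adjusted p = 0.216 in limma), and *Nr3c1*, the glucocorticoid receptor, 0.98 (adjusted p = 0.267 in limma). *Cebpa*, *Cebpb* and *Hnf4a*, which keep these genes on in hepatocytes, had differences from -0.38 to -0.24. *Gcgr*, the glucagon receptor, had 0.17, *Creb1* 0.27, *Foxo1* -0.05, *Sirt3* 0.30 and *Sirt5* 0.34, and *Ppargc1a* was not tested.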

How the data were processed

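Gene expression was measured in isolated hepatocytes of 4 hCNR1+/+ and 4 hCNR1-/- samples, 1 array each. The authors deposited the intensity of every spot after background correction by Agilent Feature Extraction (version 12.0.3.1 in the submitters' processing notes), not scaled between arrays. They also deposited a score for every spot, which matched the z-score of that log intensity in its own array to 0.005. No spot was saturated.

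From the log2 intensity, the 75th percentile over an array's 59305 non-control spots was taken away. Outlier spots were left out and the spots of a probe averaged. A probe was well above background where at least 50% of its spots carried that flag. Of 55681 probes 28331 were named by matching accessions without versions to RefSeq names (GRCm38.p6). Probes with that status on 4 or more of the 8 arrays were kept, and a gene was tested by the brightest of those it had, provided that no array lacked a value. The test was lmFit and eBayes of limma 3.58.1 in R 4.3.3, two-sided, with Benjamini-Hochberg adjustment over 11072 genes. Groups came from the labels. Exact permutation tests ran over the 70 assignments of the arrays.

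The genes and gene lists were chosen with earlier results of these data known. Per-array values are given for the 6 urea cycle enzymes, every gene at an adjusted p below 0.05, every gene at a fold above 2 with an unadjusted p below 0.05, and the largest difference of each pathway group, and other genes where their group or paralog is described. Marker lists of other cell types were also counted. All 8 endothelial markers tested had an adjusted p above 0.05, with 5 lower and 3 higher. Few markers were bright enough to be tested for stellate cells (1 of 9), cholangiocytes (1 of 5), lymphocytes (2 of 9), neutrophils (1 of 8) and erythroid cells (1 of 3). Tested on simulated data of this comparison with 11072 genes, the fit recovered 27% of genes changed by 1 and 71% of those changed by 2 on the log2 scale, with 0 wrong signs. These shares are of 100 changed genes, and 7 unchanged genes were called at either size. The alternatives were other scalings, normexp background correction, the deposited scores, other filters and probe rules, arrays weighted by their fit, other variance models, the replicate number as a block and arrays left out. Leaving out both arrays numbered 4 was added after seeing the data. The number of arrays limits the precision. Some items of the lists are not reported here.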

Additional observations from a re-analysis of the deposited data

Results flagged for a closer look

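In a group of 4 arrays, 1 array stood apart from the other 3 by Dixon's test at the 95% level for 5 of 114 groups examined, where chance gives about 1 in 20. All 5 were arrays numbered 4. On the log2 signal scale, hCNR1+/+ replicate 4 stood above the other 3 for *Ass1* (9.39 against 7.90 to 8.13), *Oat* (4.50 against 3.68 to 3.73) and *Hibadh*, of valine breakdown (5.84 against 4.99 to 5.13). Replicate 4 of hCNR1-/- stood below the other 3 for *Gpt2* (4.92 against 6.39 to 6.44) and *Cth* (0.48 against 3.27 to 3.72). This replicate was also the dimmest array, and the part of its dimness in these values was not tested.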

How the results depend on the processing

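The precision was limited by 4 arrays per genotype and by dim probes. With all arrays and scaling by the 75th percentile, 2 genes were lower and 0 higher at an adjusted p below 0.05 in limma. The lower count was 0 with the array median, no scaling, the deposited z-scores, normexp, no filter, the ordinary linear model and the replicate block, 1 (*Hal*) where probes had to be well above background on all arrays, 6 with array weights and 4 without both arrays numbered 4. The higher count was 1 (*Phgdh*) where probes had to be well above background on all arrays or in all arrays of 1 group and with the trend and robust eBayes, 5 with array weights and 4 without both arrays numbered 4. Array weights called 646 lower and 2176 higher of all 11072 genes, against 144 and 325 without weights. Leaving out both arrays numbered 4 called 480 and 1701, so these settings raised the calls over all genes too. At a fold above 2 with an unadjusted p below 0.05, the lower count was 3 with normexp, and the higher count was 2 with the trend and robust eBayes, array weights, the replicate block, and without both arrays numbered 4. Among all 11072 genes, that rule called 107 lower with normexp, against 415 in the main setting. It called 529, 572, 538 and 539 higher in the settings with a higher count of 2, in that order, against 529 in the main setting. Of genes whose groups did not overlap, the lower count was 2 with the array median, 9 with quantile normalization, 12 without scaling and 11 with the 75th percentile over bright probes. The higher count was 1 with the array median and with the z-scores, and 0 with quantile normalization, without scaling, with bright probes and with normexp. Counts of all genes without overlap are not given for these settings, so no result about the set is read from them. The median log2 difference of the genes was -0.81 without scaling, where that of all genes moved from 0.08 to -0.47, and 0.039, with its sign turned, without both arrays numbered 4. All genes called at a fold above 2 were 87.9% lower without scaling and 64.1% lower with bright probes, against 44.0% with the 75th percentile over all spots, 50.1% with quantile normalization, 54.0% with the z-scores and 30.9% where probes had to be well above background on all arrays. The cause of these shifts was not tested. Leaving out any 1 array, the median ran from -0.37 to -0.10, the lower count at an adjusted p below 0.05 from 0 to 3 and the higher from 0 to 1, and the counts at a fold above 2 from 4 to 8 for lower and from 1 to 3 for higher genes. By adjusted p, *Acmsd* was called without hCNR1-/- replicate 1 or 4, *Hal* without hCNR1-/- replicate 4 or hCNR1+/+ replicate 2, and neither without hCNR1+/+ replicate 1, 3 or 4 or hCNR1-/- replicate 2 or 3. *Kynu* and *Psph* were also called without hCNR1-/- replicate 4, and *Phgdh* without hCNR1+/+ replicate 2. Of all 11072 genes, 323 were called lower and 1121 higher without hCNR1-/- replicate 4. Without hCNR1+/+ replicate 2 these counts were 50 and 85. Deviations of the 2 arrays with the same replicate number had correlations from -0.16 to 0.21 over all tested genes. Over the 56 genes these correlations ran from -0.12 for replicate 2 to 0.44 for replicate 1. Whether the replicate numbers pair the samples was not tested. The sign of 24 of the 56 genes held under each of the 23 alternatives that tested the gene. Among them were *Acmsd*, *Hal*, *Kynu*, *Tdo2*, *Ass1*, *Fah*, *Oat*, *Sds*, *Phgdh*, *Psph* and *Glud1*. *Acmsd* was tested under 22 alternatives and *Kynu* under 21. The other variance models and the replicate block leave the differences as they are, so they could not turn a sign. The sign of 32 genes turned under at least 1 alternative, none of these at an adjusted p below 0.05.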
